A study of Mus musculus with 9 samples.

Results

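The genes described here are 40 genes of the cell cycle and of DNA replication, read in macrophages that had been exposed to interferon-gamma. The members were listed by name, and a member was kept if 3 or more of the 9 libraries read 1 TPM or higher. TPM is an abundance per unit of transcript length, given as a share of a fixed total. All 40 members were found and kept, against 11133 genes kept of the 29763 named genes of the table. By role they were 9 origin licensing genes, 5 genes of the replication clamp and nucleotide supply, 7 cyclins and kinases of G1 and S phase, 2 inhibitors of cyclin-dependent kinases (CDKs), 4 cyclin and kinase genes of S phase to mitosis, and 13 genes of chromosomes and mitosis.

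The cells were primary macrophages grown from mouse bone marrow over 7 days with 30% L929 supernatant, which supplies macrophage colony-stimulating factor. Wild-type cells were compared with cells lacking Ndufa4l3-miR147 (labelled Ndufa4l3miR147KO, also called Nmes1-deficient) and with cells lacking Ndufa4 (Ndufa4KO). There were 3 libraries of polyadenylated RNA per genotype, and every group had received interferon-gamma at 40 ng/ml for 12 hours. No unstimulated group is among these samples, so the values compare genotypes and do not measure the response to interferon. The labels call the replicates technical, so p-values measure only the spread between these libraries, not between mice. The label of the first knockout had its mark in the data: AA467197, the symbol of Ndufa4l3, read 365, 358 and 355 TPM in wild type but 2.90, 2.21 and 4.50 TPM in its own knockout. Ndufa4 checks nothing, since it was listed at 0 in 2 of the 3 wild-type libraries and at 0.303 TPM in the other.

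Before each S phase the cell loads the MCM helicase at replication origins with the help of Cdc6 and Cdt1, and geminin (Gmnn) then blocks Cdt1 so that an origin fires once. D cyclins with Cdk4 and E cyclins with Cdk2 release E2F factors from RB proteins and so open G1 to S phase, while the p21 protein (Cdkn1a) holds CDKs back. A later wave of genes, among them B cyclins and the mitotic kinases, is repressed by the DREAM complex in resting cells and switched on in G2. Bone marrow macrophages divide in response to macrophage colony-stimulating factor, and interferon-gamma is known to arrest them with an induction of p21.

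Some of the promoters carry letters that these waves are known for, which is why a few are shown here before the values. RefSeq promoter windows on GRCm38.p6, each 300 bases from 250 before to 50 after an annotated start, were matched by symbol for 32 of the 40 members and gave 35 windows. Those searched for were the CHR element TTTGAA, the CCAAT box CCAAT, and an E2F site in any of the spellings TTTCGCGC, TTTGGCGC, TTTCCCGC or TTTGCCGC, on both strands. The E2F spellings stood in 6 of 8 licensing windows (75% of them), against 2.26% of all 32851 windows. They stood in 8 of the 35 member windows: 0 of 5 for the clamp and nucleotide supply, 1 of 5 for the G1 and S phase genes, 0 of 3 for the inhibitors, 1 of 3 for the S phase to mitosis cyclins and kinase, and 0 of 11 for mitosis. The CHR stood in 11 of the 14 windows of the S phase to mitosis cyclins and the mitosis genes (78.6%) and in 1 of the 8 licensing windows, against 17.9% of all windows. CCAAT was in 25 of the 35 member windows (71.4%), against 37.4% of all windows. A match describes letters in a window and does not show that a factor binds there.

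The sequences below are the 160 bases just upstream of the start, written 5' to 3' on the gene's strand, with the motif letters in capitals (a longer run of capitals is a pair of overlapping E2F spellings). The first 3 are licensing genes, with estimates above 0 in the Ndufa4 knockout against wild type, and the last 4 are genes of the G2 and mitosis wave, with estimates below 0. Of these 7, Mcm2, Cdc20 and Ccnb2 passed the test described further on.
Mcm5 (chr8:75109349-75109508, plus strand): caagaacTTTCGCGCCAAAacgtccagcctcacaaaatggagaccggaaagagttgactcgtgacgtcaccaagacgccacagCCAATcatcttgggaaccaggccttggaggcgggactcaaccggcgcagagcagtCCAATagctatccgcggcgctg
Mcm6 (chr1:128359706-128359865, minus strand): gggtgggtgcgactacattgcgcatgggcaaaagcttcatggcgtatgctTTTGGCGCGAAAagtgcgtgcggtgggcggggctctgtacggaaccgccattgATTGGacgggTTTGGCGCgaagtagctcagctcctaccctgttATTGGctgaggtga
Mcm2 (chr6:88898781-88898940, minus strand): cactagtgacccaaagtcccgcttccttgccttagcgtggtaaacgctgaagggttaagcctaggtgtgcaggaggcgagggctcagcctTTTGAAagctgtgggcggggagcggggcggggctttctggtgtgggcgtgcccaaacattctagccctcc
Cdk1 (chr10:69352913-69353072, minus strand): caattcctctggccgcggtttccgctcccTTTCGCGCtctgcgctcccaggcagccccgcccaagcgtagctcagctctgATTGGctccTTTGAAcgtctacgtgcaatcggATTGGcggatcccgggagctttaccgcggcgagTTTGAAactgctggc
Cdc20 (chr4:118437344-118437503, minus strand): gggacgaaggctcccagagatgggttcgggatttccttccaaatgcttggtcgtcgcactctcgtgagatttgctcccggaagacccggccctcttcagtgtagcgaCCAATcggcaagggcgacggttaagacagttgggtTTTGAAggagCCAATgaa
Kif11 (chr19:37376222-37376381, plus strand): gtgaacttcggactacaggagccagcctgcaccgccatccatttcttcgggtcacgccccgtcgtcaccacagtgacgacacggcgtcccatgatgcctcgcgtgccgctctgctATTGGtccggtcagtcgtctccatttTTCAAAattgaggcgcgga
Ccnb2 (chr9:70421555-70421714, minus strand): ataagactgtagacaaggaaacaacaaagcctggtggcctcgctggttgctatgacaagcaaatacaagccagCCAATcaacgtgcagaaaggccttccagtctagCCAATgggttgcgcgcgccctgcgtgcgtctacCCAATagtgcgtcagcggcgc
Mcm5 and Mcm6 show E2F letters, and Mcm6 holds 3 matches. Mcm2 shows none in its window and instead has a CHR from 70 to 65 bases before the start. Cdc20 and Kif11 show the element close to the start, from 18 to 13 and from 19 to 14 bases before it. Cdk1 holds 2 CHR elements and an E2F site, and in Ccnb2 the CHR lies outside the printed stretch, from 167 to 162 bases before and from 5 to 10 bases after the start.

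Before the comparisons, 1 library has to be named. Ndufa4 knockout replicate 3 was the lowest of the 9 libraries in 21 of the 40 members and in 11 of the 13 mitosis genes. Its difference from the mean of its 2 partner libraries ran with the length of the longest protein-coding transcript, with Spearman rho of -0.57 over the 40 members and -0.54 over 11066 genes, given as descriptions since the points share 1 library. Among the members the largest gaps were -0.94 for Ccne2, -0.76 for Kif11 and -0.67 for Bub1 on the log2(TPM + 1) scale. The 13 genes called in this genotype are therefore also given without that library. The part of transcript length in any result was not tested beyond removing a length trend from each library.

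**Figure D1:**
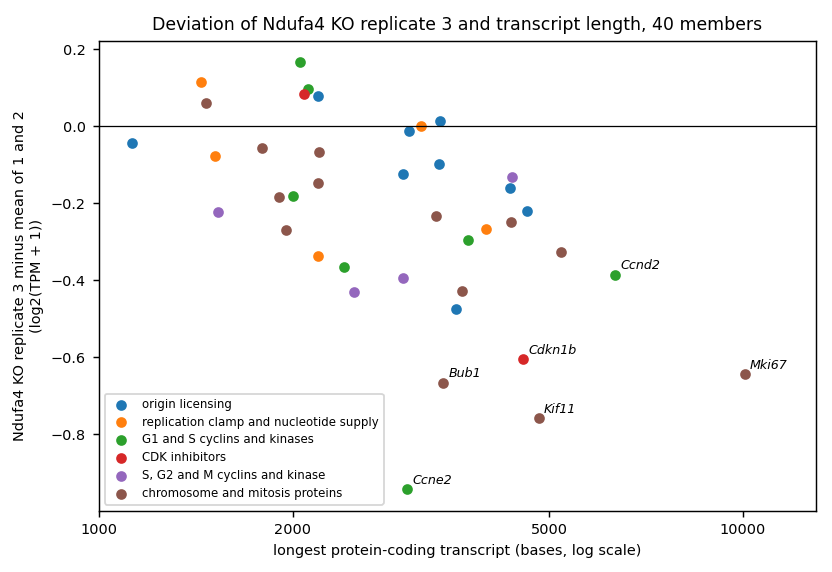
Deviation of Ndufa4 knockout replicate 3 from the mean of replicates 1 and 2 of its genotype (y axis, log2(TPM + 1)) against the longest protein-coding transcript (x axis, bases, log scale), 1 point per member, coloured by role. Most points lie below 0, and the long transcripts of Mki67, Kif11 and Ccnd2 lie farther below than the short ones of Gmnn and Cenpa.

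The macrophage label was borne out by its markers, and all 9 macrophage markers were detected. They summed to 9275 to 9412, 8856 to 9051 and 9789 to 10243 TPM in wild type, the Ndufa4l3-miR147 knockout and the Ndufa4 knockout. Lyz2 and Cd68 dominated these sums. Lyz2 was higher in the Ndufa4 knockout than in wild type (5223 to 5675 against 4509 to 4660 TPM). Cd14 (81.89 to 88.07 against 148.8 to 159.6 TPM) and Mertk (12.15 to 18.56 against 22.02 to 23.78 TPM) were lower there. So were Mrc1 (23.38 to 32.12 against 35.92 to 40.99 TPM) and Fcgr1 (619.1 to 657.2 against 665.1 to 669.3 TPM). Adgre1, Csf1r, Cd68 and Itgam overlapped wild type. None of 8 lymphocyte markers and 1 of 7 progenitor markers (Cd34) reached 1 TPM in any library. Neutrophil markers, 7 of 8 of which reached 1 TPM somewhere, summed to 5.07 to 83.2, 39.6 to 77.4 and 3.05 to 40.9 TPM in the same order, with Ly6g under 1 TPM throughout. Erythroid and megakaryocyte markers (3 of 7 at 1 TPM or more) summed to 108 to 239, 126 to 173 and 81.7 to 119.8 TPM. Fibroblast markers (4 of 6) summed to 7.13 to 44.4, 36.6 to 45.1 and 6.22 to 130.4 TPM in the same order, with the highest value in Ndufa4 knockout replicate 3. Their part in the results was not tested. The read depth behind TPM is unknown, and in bulk RNA fewer dividing cells cannot be told apart from less RNA per dividing cell.

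Wild-type macrophages held transcripts of every stage of the cycle after 12 hours of interferon-gamma. Pcna, the sliding clamp of the replication fork, was the most abundant member with 1178, 1174 and 1183 TPM in the wild-type libraries. Ccnd1 (cyclin D1) and Cdkn1a (p21) followed, with 383 to 397 and 345 to 351 TPM. Bub1, a spindle checkpoint kinase, and Cdc6 were the lowest, at 11.2 to 13.5 and 16.5 to 17.7 TPM. No member lay near the limit of 1 TPM, since the lowest value of any member was 5.26 TPM (Bub1 in Ndufa4 knockout replicate 3), and no listed gene fell outside the rule.

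The comparison of Ndufa4 knockout with wild type asks how loss of this subunit of mitochondrial complex IV bears on the cycle genes of interferon-treated macrophages. Mcm2, Mcm3 and geminin of origin licensing rose, as did cyclin D1 and the clamp, while both B cyclins, the mitotic kinases Aurkb and Plk1, and p21 fell. Of the 40 members, 13 were called at an adjusted p under 0.05 (limma, Benjamini-Hochberg over all genes tested). The share called among all 11133 genes was 8.59%. Of the 13, 5 rose (Mcm2, Mcm3, Gmnn, Pcna, Ccnd1; 2.83% of all genes rose) and 8 fell (Cdkn1a, Ccnb1, Ccnb2, Aurkb, Plk1, Cdc20, Tpx2, Cenpa; 5.76% of all genes fell). The median difference over the members was -0.13 on the log2(TPM + 1) scale and over all genes -0.08.

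**Figure D2:**
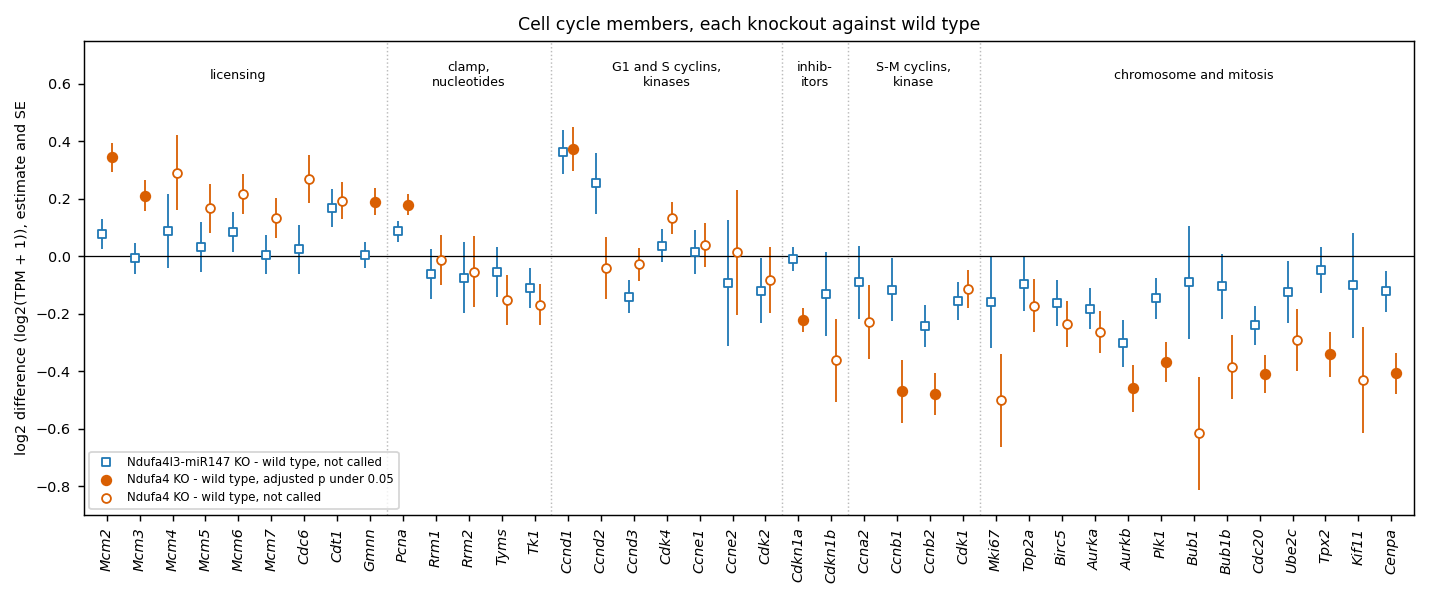
Difference from wild type of each of the 40 members (y axis, log2(TPM + 1), estimate and SE from limma over 9 libraries), grouped by role, for the Ndufa4l3-miR147 knockout (squares) and the Ndufa4 knockout (circles, filled where the adjusted p was under 0.05). The 9 licensing genes lie above 0 and the 13 mitosis genes below 0 in the Ndufa4 knockout.

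In origin licensing all 9 estimates for the Ndufa4 knockout were above 0, from 0.13 to 0.34 with a median of 0.21, 3 passed the test, and in 6 of the 9 the Ndufa4 knockout libraries lay above every wild-type library. Among all genes 9.40% lay above in that way, 3952 of 11133 estimates were above 0 and 2.83% rose. All 9 estimates also stayed above 0 with median-of-ratios scaling, with quantile normalization and without Ndufa4 knockout replicate 3. The count of calls was less stable. It was 6 without that library, the additional genes being Mcm4, Mcm6 and Cdc6, and 5 with either other scaling. It was 1 (Mcm2) in the fit on 6 libraries, without the intensity trend, with the replicate block, without any 1 wild-type library, without Ndufa4l3-miR147 knockout replicate 1 or 2, and without Ndufa4 knockout replicate 2. The number of all genes called higher moved too, from 315 to 617 without Ndufa4 knockout replicate 3 and to 492 and 499 with the scalings. That number was 82 with 6 libraries, 91 to 99 without 1 wild-type library and 302 without Ndufa4 knockout replicate 2.

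Mcm2, a subunit of the MCM helicase (chr6:88883474-88898780, minus strand, GRCm38), had 65.7, 64.9 and 65.8 TPM in wild type, 70.3, 69.9 and 66.9 TPM in Ndufa4l3-miR147 knockout cells and 82.9, 87.7 and 79.6 TPM in the Ndufa4 knockout. The 3 genotypes did not overlap, and the Ndufa4 knockout was highest. Its mean was 27.4% above wild type, a log2 difference of 0.34 ± 0.05 (SE; adjusted p = 0.0067, limma). Mcm3, another subunit of the helicase (chr1:20802968-20820312, minus strand), had 106, 103 and 100.4 TPM in wild type, 105, 107 and 95.9 TPM in Ndufa4l3-miR147 knockout cells and 118, 121 and 119 TPM in the Ndufa4 knockout, so only the last group stood apart from wild type. The difference was 0.21 ± 0.05 (adjusted p = 0.045, limma). For Gmnn, the inhibitor of Cdt1 (chr13:24751845-24761923, minus strand), the libraries read 207, 205 and 207 TPM in wild type, 215, 211 and 196 TPM in the first knockout and 236, 241 and 231 TPM in the Ndufa4 knockout. The Ndufa4 knockout again lay above all other libraries, by 0.19 ± 0.05 over wild type (adjusted p = 0.038, limma). With the length trend removed the difference was 0.10 ± 0.08 and the call was absent (adjusted p = 0.46, limma).

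The other licensing genes did not pass the test in this fit. Mcm6, of the same helicase, had 166, 173 and 186 TPM in wild type against 218, 204 and 189 TPM in the Ndufa4 knockout (189.6, 193 and 174 TPM in the Ndufa4l3-miR147 knockout). The Ndufa4 knockout lay above wild type in all 3 libraries, with a difference of 0.22 ± 0.07 and an adjusted p of 0.089 (limma). Mcm7 had 124, 117 and 110.2 TPM in wild type, 118, 112 and 123 TPM in Ndufa4l3-miR147 knockout cells and 126, 139 and 121 TPM in the Ndufa4 knockout, which overlapped. The remaining 4, Mcm4, Mcm5, Cdc6 and Cdt1, had differences of 0.29 ± 0.13, 0.17 ± 0.09, 0.27 ± 0.08 and 0.19 ± 0.07. Cdc6, which recruits the helicase to origins, had 16.8, 16.5 and 17.7 TPM in wild type and 22.9, 20.8 and 18.6 TPM in the Ndufa4 knockout, without overlap.

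Among the genes of the clamp and of nucleotide supply, 1 of 5 rose, where 2.83% of all genes did. Pcna (chr2:132249162-132253314, minus strand) had 1178, 1174 and 1183 TPM in wild type, 1247, 1255 and 1255 TPM in Ndufa4l3-miR147 knockout cells and 1372, 1346 and 1287 TPM in the Ndufa4 knockout. Its 3 groups did not overlap, and the Ndufa4 knockout was 13.3% above wild type (0.18 ± 0.04, adjusted p = 0.021, limma). That call was absent with quantile normalization and after removal of the length trend. It was also absent in the fit on 6 libraries, without the intensity trend and without any 1 wild-type library. The subunits of ribonucleotide reductase, which makes deoxynucleotides, overlapped between groups. Rrm1 had 97.4, 95.5 and 98.0 TPM in wild type, 97.4, 91.7 and 89.5 TPM in Ndufa4l3-miR147 knockout cells and 111, 94.4 and 84.7 TPM in the Ndufa4 knockout. Rrm2 had 116, 114 and 108 TPM, 122, 99.5 and 99.99 TPM, and 131, 105 and 92.6 TPM in the same order. In both genes Ndufa4 knockout replicate 1 was the highest and replicate 3 the lowest of all libraries. Tyms and Tk1, which make and salvage thymidylate, had differences of -0.15 ± 0.09 and -0.17 ± 0.07 and were not called.

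Of the G1 and S phase cyclins and kinases, 1 of 7 rose, where 2.83% of all genes did. Ccnd1, the cyclin D1 that couples growth factor signals to Cdk4 (chr7:144929931-144939925, minus strand), had 385, 383 and 397 TPM in wild type, 498, 509 and 493 TPM in Ndufa4l3-miR147 knockout cells and 555, 525 and 439.8 TPM in the Ndufa4 knockout. Both knockouts lay above all wild-type libraries, and the Ndufa4 knockout spanned the other knockout. Its difference from wild type was 0.37 ± 0.08 (30.3%; adjusted p = 0.021, limma) and without replicate 3 it was 0.47 ± 0.04. The call was absent without the filter on low values, in the fit on 6 libraries and without any 1 wild-type library. Cdk4, the kinase partner of D cyclins, had 115, 109 and 112 TPM in wild type, 115, 113 and 117 TPM in the first knockout and 119, 117 and 133 TPM in the Ndufa4 knockout, a difference of 0.13 ± 0.06 that was not called. Ccnd3, cyclin D3, had 102, 96.7 and 93.8 TPM, then 91.4, 87.9 and 85.6 TPM, and then 90.6, 96.3 and 99.95 TPM. The Ndufa4 knockout overlapped wild type there, while the Ndufa4l3-miR147 knockout lay below it. Ccnd2, Ccne1 and Cdk2 had differences of -0.04 ± 0.11, 0.04 ± 0.08 and -0.08 ± 0.11.

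Ccne2, a cyclin E that activates Cdk2, was chosen after its values were seen because 1 library decided it. It had 43.4, 42.0 and 43.2 TPM in wild type, 37.0, 40.6 and 43.0 TPM in Ndufa4l3-miR147 knockout cells and 53.2, 54.8 and 27.6 TPM in the Ndufa4 knockout. Replicates 1 and 2 lay above wild type and replicate 3 below it. The difference was 0.01 ± 0.22 with all libraries and 0.33 ± 0.06 without replicate 3 (adjusted p = 0.013, limma).

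Both CDK inhibitors had lower levels, and 1 of them passed the test, where 5.76% of all genes fell. Cdkn1a, which encodes p21 (chr17:29090976-29100727, plus strand), had 345, 351 and 345 TPM in wild type, 346, 337 and 350.4 TPM in Ndufa4l3-miR147 knockout cells and 296, 288 and 309.5 TPM in the Ndufa4 knockout. Wild type and the first knockout overlapped, and every Ndufa4 knockout library lay below both. The mean was 14.2% below wild type, a difference of -0.22 ± 0.04 (adjusted p = 0.016, limma). With median-of-ratios scaling the difference was -0.15 and the call was absent, as it was in the fit on 6 libraries and without any 1 wild-type library. Cdkn1b, which encodes the inhibitor p27, had 30.7, 32.0 and 32.1 TPM in wild type, 28.5, 27.95 and 29.8 TPM in the first knockout and 27.3, 29.0 and 18.2 TPM in the Ndufa4 knockout. Both knockouts lay below wild type, and the difference of the Ndufa4 knockout, -0.36 ± 0.15, was not called. Without Ndufa4 knockout replicate 3 that difference was -0.16.

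**Figure D3:**
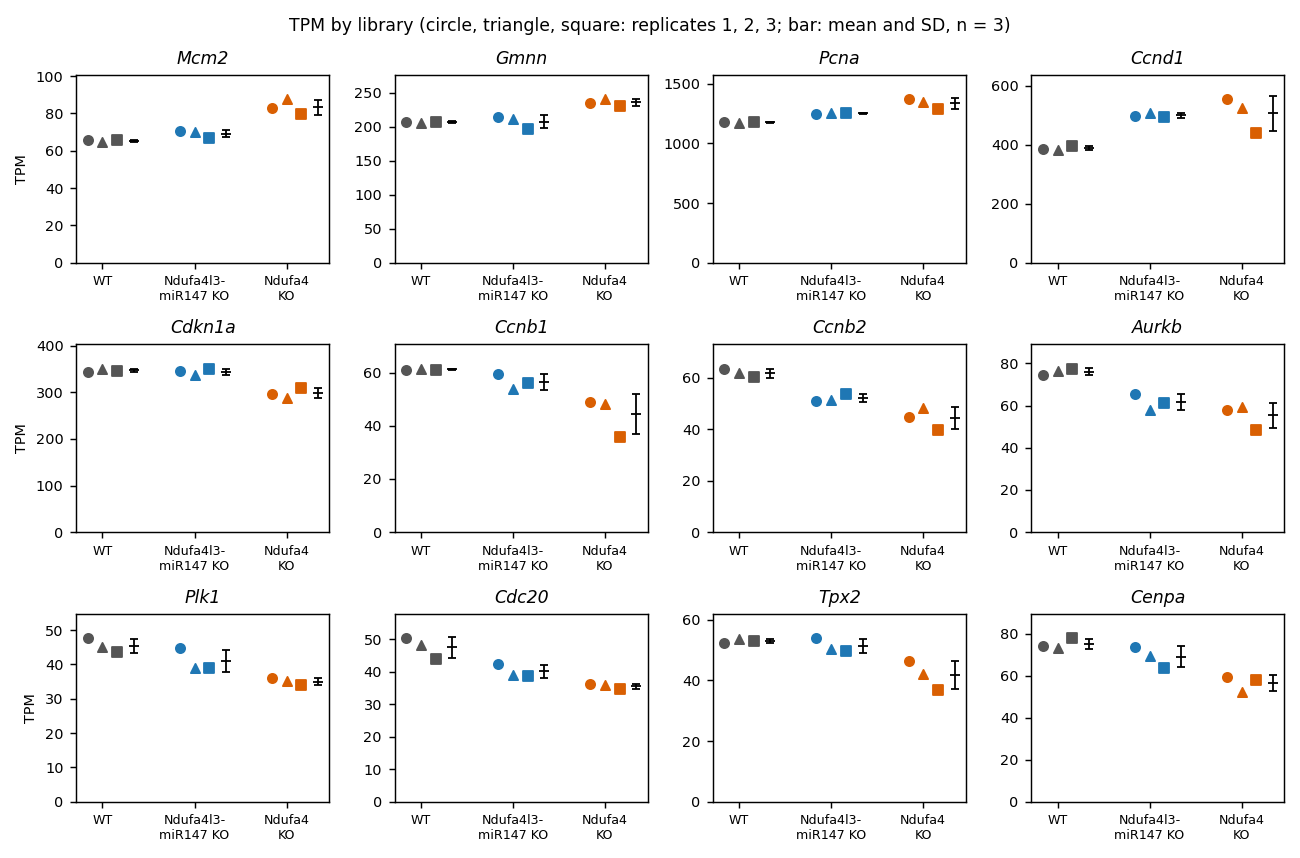
TPM (y axis, from 0) of 12 members called in the Ndufa4 knockout in each of the 9 libraries, with replicates 1, 2 and 3 as circle, triangle and square and the mean and SD (n = 3) as a bar. Mcm2, Gmnn and Pcna are higher in the Ndufa4 knockout, Cdkn1a and the mitosis genes are lower, and Ccnd1 is higher in both knockouts.

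The cyclins and kinase of S phase to mitosis had 4 of 4 estimates below 0, and 2 of the 4 fell. Over all genes 7181 of 11133 estimates were below 0 and 5.76% of genes fell. Ccnb1, the cyclin B1 that drives entry into mitosis (chr13:100778650-100786570, minus strand), had 61.2, 61.5 and 61.2 TPM in wild type, 59.6, 53.8 and 56.2 TPM in Ndufa4l3-miR147 knockout cells and 49.0, 48.3 and 35.9 TPM in the Ndufa4 knockout. The groups did not overlap and the Ndufa4 knockout was lowest (-0.47 ± 0.11, adjusted p = 0.032, limma), also without its replicate 3 (-0.33 ± 0.05). Ccnb2, cyclin B2 (chr9:70407692-70421547, minus strand), had 63.7, 61.9 and 60.2 TPM, then 51.1, 51.4 and 53.9 TPM, and then 44.8, 48.2 and 39.7 TPM. These groups did not overlap either, and the mean of the Ndufa4 knockout was 28.5% below wild type (-0.48 ± 0.07, adjusted p = 0.0067, limma). Ccna2, the cyclin A of S phase and G2, had 74.6, 72.8 and 71.8 TPM in wild type and 77.5, 60.0 and 51.7 TPM in the Ndufa4 knockout (75.1, 64.9 and 66.0 TPM in the other knockout). Cdk1, the kinase that B cyclins activate, had 195, 174 and 187 TPM in wild type, 170.1, 155 and 174 TPM in the first knockout and 178, 175 and 161 TPM in the Ndufa4 knockout. Both genes overlapped between the Ndufa4 knockout and wild type, with differences of -0.23 ± 0.13 and -0.11 ± 0.07.

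Of the 13 genes of chromosomes and mitosis, all 13 estimates were below 0, from -0.62 to -0.17 with a median of -0.39, and 5 fell. Most genes leaned the same way: 7181 of all 11133 estimates were below 0, and 5.76% of all genes fell. In 11 of the 13 every Ndufa4 knockout library lay below every wild-type library, against 21.7% of all genes. All 13 stayed below 0 under both other scalings and without replicate 3, where the median was -0.26 and 7 were called. Without replicate 3, 969 of all genes were called lower, against 641 with all libraries.

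Aurkb, the kinase of the chromosomal passenger complex (chr11:69045647-69051664, plus strand), had 74.2, 76.6 and 77.5 TPM in wild type, 65.4, 58.1 and 61.2 TPM in Ndufa4l3-miR147 knockout cells and 58.0, 59.4 and 48.5 TPM in the Ndufa4 knockout. Both knockouts lay below wild type and overlapped each other, and the Ndufa4 knockout fell by 0.46 ± 0.08 on the log2 scale (adjusted p = 0.012, limma). Cdc20, the activator of the anaphase-promoting complex (chr4:118432901-118437352, minus strand), had 50.3, 48.3 and 44.0 TPM, then 42.4, 38.9 and 38.7 TPM, and then 36.1, 35.8 and 34.6 TPM. Its 3 groups were in order without overlap, and the Ndufa4 knockout differed from wild type by -0.41 ± 0.07 (adjusted p = 0.0090, limma). Plk1, a kinase of centrosomes and spindle (chr7:122159439-122169873, plus strand), had 47.7, 45.1 and 43.5 TPM, 44.8, 39.1 and 39.1 TPM, and 36.0, 35.1 and 33.9 TPM. Only the Ndufa4 knockout stood below all wild-type libraries (-0.37 ± 0.07, adjusted p = 0.016, limma).

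Cenpa, the histone H3 variant of centromeres (chr5:30666777-30674830, plus strand), had 74.2, 73.3 and 77.9 TPM in wild type, 73.9, 69.5 and 63.8 TPM in Ndufa4l3-miR147 knockout cells and 59.2, 52.2 and 58.1 TPM in the Ndufa4 knockout. The Ndufa4 knockout was below all others, replicate 3 was not its lowest library, and the difference was -0.41 ± 0.07 (adjusted p = 0.012, limma). Tpx2, which activates Aurora A on the spindle (chr2:152847964-152895321, plus strand), had 52.4, 53.6 and 53.0 TPM, 53.9, 50.3 and 49.8 TPM, and 46.3, 42.1 and 37.0 TPM. There too the Ndufa4 knockout lay below the rest (-0.34 ± 0.08, adjusted p = 0.033, limma).

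The most abundant genes of this group were not called. Top2a, the topoisomerase that untangles sister chromatids, had 219, 217 and 227 TPM in wild type, 219.8, 199 and 202 TPM in the first knockout and 223, 200.3 and 168 TPM in the Ndufa4 knockout, with overlap. Birc5 (survivin, of the passenger complex) had 119, 119 and 118 TPM, 114, 105 and 100.1 TPM, and 112, 101 and 90.6 TPM, so both knockouts lay below wild type. Ube2c, the ubiquitin-conjugating enzyme of the anaphase-promoting complex, had 121, 111 and 117 TPM, 116, 103 and 101 TPM, and 114, 84.8 and 88.5 TPM, with overlap. Their differences in the Ndufa4 knockout were -0.17 ± 0.09, -0.23 ± 0.08 and -0.29 ± 0.11. Mki67, the proliferation marker Ki-67, was added after its values were seen: it had 56.3, 57.8 and 60.2 TPM in wild type and 47.9, 46.9 and 30.0 TPM in the Ndufa4 knockout. Those libraries did not overlap, and the difference was -0.50 ± 0.16 with all libraries (adjusted p = 0.089, limma) and -0.29 ± 0.08 without replicate 3 (adjusted p = 0.044, limma). Bub1, with the lowest estimate, had 11.2, 13.5 and 11.5 TPM in wild type, 13.7, 9.34 and 11.1 TPM in the first knockout and 9.29, 8.58 and 5.26 TPM in the Ndufa4 knockout (-0.62 ± 0.20, adjusted p = 0.089, limma). Aurka, Bub1b and Kif11, of spindle poles, spindle checkpoint and spindle motor, had differences of -0.26 ± 0.07, -0.39 ± 0.11 and -0.43 ± 0.18 without a call.

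**Figure D4:**
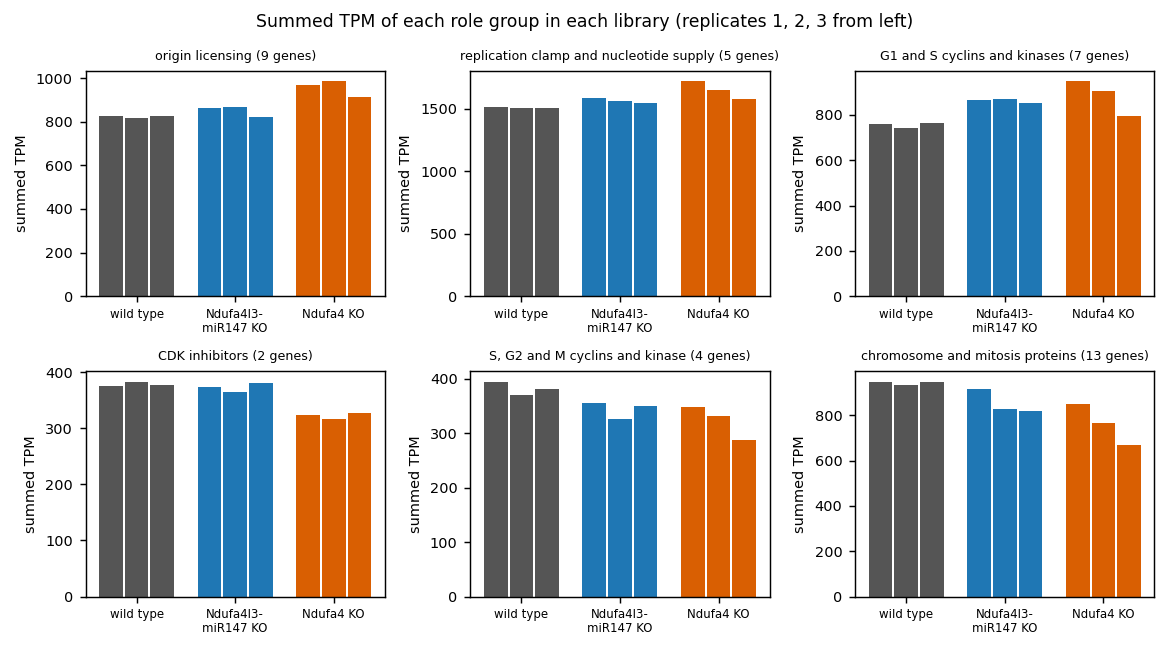
Summed TPM of the members of each role group (y axis, from 0) in each library, with 3 bars per genotype for replicates 1 to 3. Licensing sums lie at 817 to 828 TPM for wild type against 913 to 985 TPM for the Ndufa4 knockout, and mitosis sums at 933 to 949 TPM against 670.3 to 848 TPM.

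Summed over the role groups, the opposite shifts stood within the same libraries. Licensing genes summed to 828, 817 and 826 TPM in wild type, 864, 865 and 823 TPM in Ndufa4l3-miR147 knockout cells and 969.8, 985 and 913 TPM in the Ndufa4 knockout. Mitosis genes summed to 945, 933 and 949 TPM, 918, 827 and 819 TPM, and 848, 765 and 670.3 TPM in the same order. The Ndufa4 knockout was the highest in the first sum and lay below wild type in the second, with its replicate 3 lowest. Replicate 1 of the Ndufa4l3-miR147 knockout lay near wild type in the mitosis sum, and its other 2 libraries lay lower.

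All 13 called members were also called without Ndufa4 knockout replicate 3, where 1586 of all genes were called against 956 with all libraries. The differences of those that rose were then 0.38 ± 0.04 for Mcm2, 0.21 ± 0.05 for Mcm3, 0.20 ± 0.04 for Gmnn and 0.21 ± 0.03 for Pcna, beside the value of Ccnd1 above. Among those that fell they were -0.25 ± 0.03 for Cdkn1a, -0.41 ± 0.05 for Ccnb2, -0.37 ± 0.05 for Aurkb, -0.35 ± 0.07 for Plk1, -0.39 ± 0.07 for Cdc20, -0.26 ± 0.06 for Tpx2 and -0.43 ± 0.07 for Cenpa, beside Ccnb1 above.

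Leaving out 1 wild-type library ended most of these calls: 3 members were called without replicate 1 (Mcm2, Ccnb2, Cdc20), 3 without replicate 2 (Mcm2, Ccnb2, Cenpa) and 4 without replicate 3 (Mcm2, Ccnb2, Cdc20, Plk1), against 19 without Ndufa4 knockout replicate 3. Mcm2 and Ccnb2 were called in all 19 alternatives, and 5 members were called when only the 6 libraries of these genotypes were fitted. Over all genes 266, 266 and 290 were called without wild-type replicate 1, 2 and 3, and 238 with those 6 libraries. Without Ndufa4 knockout replicate 3 there were 1586, against 956 in the main fit.

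The comparison of Ndufa4l3-miR147 knockout with wild type asks the same of the gene that encodes a relative of Ndufa4 together with a microRNA. No member was called (0 of 40), where 0.431% of all genes were (0.243% higher and 0.189% lower), and 10 of the 40 had an unadjusted p under 0.05 (limma; 917 of 11133 genes did). Differences were small: the members ranged from -0.30 (Aurkb) to 0.36 (Ccnd1), with a median of -0.09 against 0.00 over all genes. All 13 mitosis genes and all 4 cyclin and kinase genes of S phase to mitosis had estimates below 0, with medians of -0.12 and -0.14, and 8 of 9 licensing genes lay above 0 with a median of 0.03 (7 of 9 with quantile normalization). Over all genes 5518 of 11133 estimates were below 0 and 5615 above. In 9 members the knockout libraries all lay below wild type and in 5 all lay above, where 12.0% and 11.9% of all genes did so.

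The lowest p belonged to Ccnd1, whose knockout libraries of 493 to 509 TPM lay 28.6% above the wild-type mean (0.36 ± 0.08, adjusted p = 0.13, limma). Aurkb, at 58.1 to 65.4 TPM against 74.2 to 77.5 TPM, differed by -0.30 ± 0.08 (adjusted p = 0.25, limma). Cdc20 at 38.7 to 42.4 TPM lay below all wild-type libraries, a difference of -0.24 ± 0.07 (adjusted p = 0.27, limma). The Ccnb2 values given above lay apart as well, at -0.24 ± 0.07. Among the members Ccnd1 alone was called with median-of-ratios scaling and with the length trend removed, where 47 and 51 of all genes were called. Ndufa4 knockout replicate 3 enters this comparison only through the shared estimate of spread. Without that library Ccnd1 (adjusted p = 0.0021, limma) was called higher and Aurkb and Ccnb2 (0.025 and 0.042) lower. In that setting 198 of all genes were called, 111 higher and 87 lower, against 48 with all libraries. Both comparisons against wild type share the same control libraries, so a wild-type library that is high or low moves both.

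The comparison between the knockouts was read from the Ndufa4l3-miR147 side. There 1 of 40 members was higher and 1 lower (2.20% and 1.04% of all genes, 3.24% in all). An unadjusted p under 0.05 (limma) was found for 15 of the 40, where 2263 of 11133 genes had one. The median was 0.07 over the members and 0.07 over all genes. Cdkn1a was 15.6% higher in the Ndufa4l3-miR147 knockout than in the Ndufa4 knockout (0.21 ± 0.04, adjusted p = 0.032, limma), and its libraries of 337 to 350.4 TPM lay above 288 to 309.5 TPM. Mcm2 was lower there, at 66.9 to 70.3 TPM against 79.6 to 87.7 TPM (-0.27 ± 0.05, adjusted p = 0.029, limma). Mcm3 and Gmnn came next, at -0.22 ± 0.05 and -0.19 ± 0.05 (adjusted p = 0.068 for each, limma), both without overlap. Ccnd1 did not separate the knockouts (-0.01 ± 0.08).

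By role, all 9 licensing estimates were below 0 and all 13 mitosis estimates above 0 in this comparison, with medians of -0.19 and 0.22 (8 of 9 licensing estimates with the length trend removed). Over all 11133 genes 7366 estimates were above 0 and 3766 below. This comparison shares its Ndufa4 knockout libraries with the comparison of that knockout with wild type, so opposite signs there are not a separate observation. In 7 mitosis genes the Ndufa4l3-miR147 knockout libraries lay above all Ndufa4 knockout libraries (18.3% of all genes did), and in 4 licensing genes they lay below (6.98%). Without Ndufa4 knockout replicate 3, 11 of 13 mitosis estimates were above 0 and 8 of 9 licensing estimates below, and 10 members were called, 3 higher and 7 lower. In that setting 740 of all genes were called, 495 higher and 245 lower, against 361 with all libraries. The calls of Cdkn1a and Mcm2 were both absent without any 1 wild-type or Ndufa4l3-miR147 knockout library and without Ndufa4 knockout replicate 2.

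Genes of the same pathways outside the 40 members were read from lists in the same fit. Among 44 genes of origin recognition and the replication fork, 2 rose and none fell in the Ndufa4 knockout, with a median of 0.07. The share that rose, 4.55%, was near the 2.83% of all genes. Pold2, a subunit of DNA polymerase delta, had 45.5, 40.2 and 46.9 TPM in wild type and 53.9, 52.5 and 52.5 TPM in the Ndufa4 knockout (0.26 ± 0.06, adjusted p = 0.040, limma). Rfc4, of the complex that loads the clamp, had 29.4, 23.5 and 23.5 TPM and 33.0, 34.3 and 31.1 TPM (0.36 ± 0.09, adjusted p = 0.043, limma). In both the Ndufa4 knockout lay above wild type. With median-of-ratios scaling 7 of the 44 rose, without Ndufa4 knockout replicate 3 there were 8, and with 1 wild-type library left out 0 or 1 did. Over all genes 492, 617 and 91 to 99 were called higher in these settings, against 315 in the main fit.

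Of 19 E2F, RB and DREAM factors kept from a list of 20, 1 was called, and that share of 5.26% was near the 5.76% of all genes that fell. Rbl2, the RB relative p130 of the DREAM complex, had 17.7, 16.8 and 16.4 TPM in wild type and 14.0, 11.3 and 8.95 TPM in the Ndufa4 knockout (-0.55 ± 0.14, adjusted p = 0.0497, limma). Its libraries did not overlap. The call was present in 6 of the 19 alternatives and absent, among others, with either other pseudocount, without any 1 wild-type or Ndufa4l3-miR147 knockout library and without Ndufa4 knockout replicate 2 or 3. E2f1 had a difference of 0.03 ± 0.05 and Foxm1, a factor for G2 genes, of -0.23 ± 0.13; both were named after their values were seen.

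Of 57 further genes of the mitotic apparatus, 14 fell and 1 rose in the Ndufa4 knockout (24.6% and 1.75%, against 5.76% and 2.83% of all genes), with a median of -0.24 against -0.08 over all genes. Cdca3, a mitotic entry factor, had 55.3, 50.5 and 54.8 TPM in wild type, 50.4, 50.6 and 47.3 TPM in the first knockout and 39.7, 40.9 and 40.8 TPM in the Ndufa4 knockout. The Ndufa4 knockout lay below every other library (-0.39 ± 0.06, adjusted p = 0.0057, limma). Stmn1 (stathmin, which destabilizes microtubules) had 411, 406 and 376 TPM, 358, 330.0 and 352 TPM, and 298, 306 and 325 TPM, in order without overlap (-0.36 ± 0.06, adjusted p = 0.0070, limma). Incenp, the scaffold of the passenger complex that holds Aurkb, had 51.3, 48.9 and 51.9 TPM in wild type and 41.5, 41.1 and 41.9 TPM in the Ndufa4 knockout (-0.28 ± 0.05, adjusted p = 0.015, limma). Tubb5, a beta tubulin with close paralogs, was the gene that rose, with 1139.7, 1119 and 1104 TPM in wild type against 1304, 1266 and 1249 TPM (0.18 ± 0.04, adjusted p = 0.021, limma). Without 1 wild-type library 2 or 3 of the 57 fell, and Cdca3 and Stmn1 were called in all 19 alternatives. Ube2t, an enzyme of DNA crosslink repair, was the only gene of the lists called in the Ndufa4l3-miR147 knockout, where it had 12.3, 13.3 and 12.9 TPM against 17.4, 18.8 and 21.2 TPM in wild type (-0.54 ± 0.09, adjusted p = 0.038, limma). It was called in 8 of the 19 alternatives, and the call was absent without any 1 wild-type or Ndufa4l3-miR147 knockout library.

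Several genes of cell cycle arrest and the DNA damage checkpoint fell in the Ndufa4 knockout, as p21 did. Of 23 kept from a list of 25, 8 fell (Sesn2, Zmat3, Cdkn2c, Ccng2, Sesn1, Phlda3, Cdkn2a and Btg2) and 1 rose (Gadd45g) in the Ndufa4 knockout, with a median of -0.33. These were 34.8% and 4.35% of the list, against 5.76% and 2.83% of all genes. Sesn2, a stress sensor known as a p53 target, had 12.5, 12.2 and 11.5 TPM in wild type, 11.7, 11.9 and 12.5 TPM in Ndufa4l3-miR147 knockout cells and 7.37, 8.43 and 7.71 TPM in the Ndufa4 knockout. Only the Ndufa4 knockout stood apart, 34.9% below wild type (-0.56 ± 0.08, adjusted p = 0.0048, limma). Zmat3, an RNA-binding protein induced by p53, had 8.63, 8.66 and 8.41 TPM, 8.30, 7.46 and 8.30 TPM, and 4.85, 5.78 and 4.82 TPM, with the Ndufa4 knockout lowest (-0.64 ± 0.09, adjusted p = 0.0052, limma). Cdkn2c, the Cdk4 inhibitor p18, had 72.8, 70.5 and 65.5 TPM in wild type and 54.1, 56.0 and 49.0 TPM in the Ndufa4 knockout (-0.39 ± 0.07, adjusted p = 0.011, limma).

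**Figure D5:**
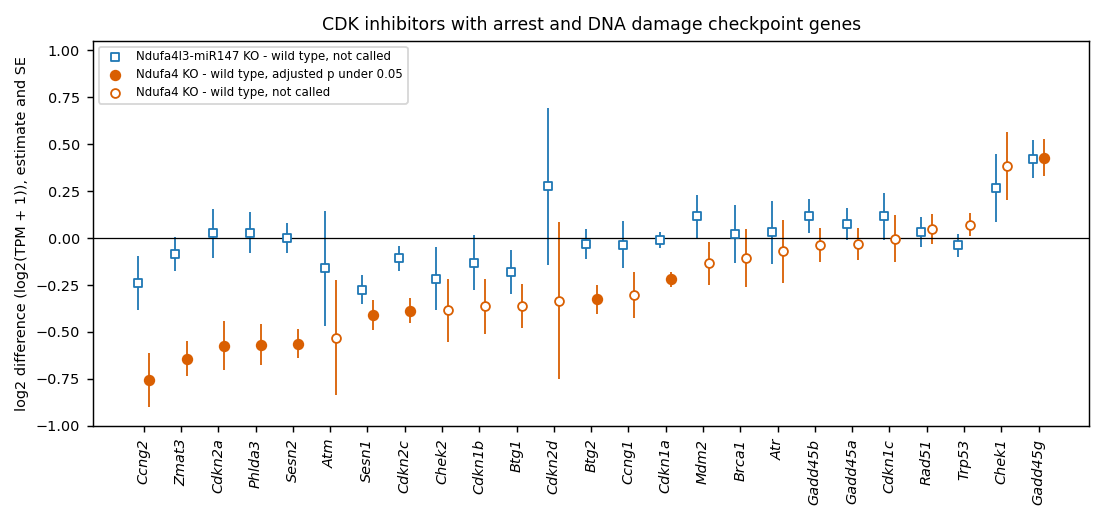
Difference from wild type (y axis, log2(TPM + 1), estimate and SE from limma) of the 2 CDK inhibitors among the members and the 23 kept genes of the arrest and DNA damage checkpoint list, for the Ndufa4l3-miR147 knockout (squares) and the Ndufa4 knockout (circles, filled where called). Ccng2, Zmat3, Cdkn2a, Phlda3 and Sesn2 lie lowest in the Ndufa4 knockout among those called, and Gadd45g lies above 0 in both knockouts.

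Trp53 and Mdm2, the most abundant genes of this list, had differences of 0.07 ± 0.06 and -0.14 ± 0.11 and were not called. Gadd45g, a stress-induced growth arrest gene, had 26.5, 31.9 and 30.2 TPM in wild type and 34.8, 40.8 and 45.0 TPM in the Ndufa4 knockout (0.43 ± 0.10, adjusted p = 0.033, limma). It was the 1 called gene of the list that rose, and 4 of the 23 estimates lay above 0. Between the knockouts Sesn2, Zmat3, Phlda3 and Cdkn2a were higher in the Ndufa4l3-miR147 knockout, with differences of 0.56 ± 0.08, 0.56 ± 0.09, 0.60 ± 0.11 and 0.60 ± 0.13 (adjusted p = 0.0085, 0.016, 0.024 and 0.045, limma). Those calls were present in 17, 14, 9 and 6 of the 19 alternatives. Without 1 wild-type library 2 or 3 of the 23 fell, Sesn2 and Zmat3 among them, which were called against wild type in all 19 alternatives.

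From the 13 genes kept of 14 that carry growth signals to the cycle, Myc rose and Mxd1 fell in the Ndufa4 knockout, 7.69% of the list in each direction, where 2.83% of all genes rose and 5.76% fell. Myc, the growth factor responsive transcription factor, had 22.3, 21.7 and 21.3 TPM in wild type, 28.6, 26.4 and 31.9 TPM in Ndufa4l3-miR147 knockout cells and 42.4, 37.6 and 37.7 TPM in the Ndufa4 knockout. The 3 groups were in order without overlap, with the Ndufa4 knockout 80.3% above wild type (0.82 ± 0.08, adjusted p = 9.9e-04, limma, and called in all 19 alternatives). The first knockout differed from wild type by 0.39 ± 0.08, which was not called (adjusted p = 0.11, limma), and from the Ndufa4 knockout by -0.43 ± 0.08 (adjusted p = 0.026, limma). Mxd1, which competes with Myc for its partner Max, had 6.03, 5.49 and 6.22 TPM in wild type and 4.33, 4.75 and 3.999 TPM in the Ndufa4 knockout (-0.37 ± 0.10, adjusted p = 0.048, limma), a call present in 4 of the 19 alternatives. Csf1r, the receptor for macrophage colony-stimulating factor, overlapped between all groups, with libraries of 953 to 993, 915 to 967 and 953 to 975 TPM in wild type, the Ndufa4l3-miR147 knockout and the Ndufa4 knockout. In the Ndufa4l3-miR147 knockout, no gene of the replication fork, E2F, arrest or growth signal lists was called against wild type. The most abundant genes of these lists lay near 0 there: Rpa1 and Lig1 of the fork at -0.09 and -0.10, Rbbp4 of the DREAM complex at -0.03, and Trp53 and Mdm2 at -0.04 and 0.12.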

How the data were processed

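Polyadenylated RNA of 9 libraries, 3 per genotype, was analysed from 1 table of TPM deposited by the authors. The tools named in the submitters' processing notes were kallisto, DESeq2 and edgeR, and the builds mm10 and GRCm39, with no version or role. For the annotation release and read filters, the sources used here give nothing. TPM keep no read depth and are shares of a fixed total divided by a modelled transcript length. A gain in abundant genes or uneven coverage of long transcripts therefore moves them, and paralogs can share reads. Totals in the table were 913474 to 921678 TPM per library, a row with no gene name, holding up to 0.0028% of each library, was dropped, and 10809 to 10959 genes reached 1 TPM. No pair of libraries shared more than 0.162% identical values.

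Values were transformed to log2(TPM + 1), which understates changes of low genes. The filter was 1 TPM or more in 3 or more libraries. All 9 libraries entered 1 linear model of genotype in limma 3.58.1 (R 4.3.3, intensity trend, two-sided, Benjamini-Hochberg over 11133 genes). Calls needed an adjusted p under 0.05. The procedure was tested on simulated data. Gene coordinates and transcript lengths came from GENCODE on GRCm38 and promoters from RefSeq.

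Named genes were the targets, every called member, the 3 most abundant members of each role, the 3 lowest p of each comparison, and up to 3 called genes per direction of each other list (else the 2 most abundant). The members, lists and rule were chosen with earlier results of these data known. Of 160 genes in the other lists, 159 were found, Knl1, Sgo1 and H2az1 by older symbols. The alternatives were other pseudocounts (0.1 and 0.5), filters (none, or 5 TPM), median-of-ratios scaling, quantile normalization, a fit on 6 libraries, no intensity trend, removal of a length trend, a replicate block and leaving out each library.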

Additional observations from a re-analysis of the deposited data

How the results depend on the processing

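Over 19 alternatives, none of the 2280 values of single members reversed a call: 85 lost one, 45 gained one, and 59 uncalled values near 0 changed sign. In the Ndufa4 knockout against wild type, the 13 members called became 5 in a fit on the 6 libraries compared and ranged from 3 to 19 when 1 library was left out, and the 956 genes called became 238 and ranged from 266 to 1586. In the Ndufa4l3-miR147 knockout against wild type, the 0 members called became 1 with median-of-ratios scaling, 3 with 6 libraries and 1 with the length trend removed, and ranged from 0 to 3. The 48 genes called there became 306 with 6 libraries and 30 without the intensity trend and ranged from 13 to 198. Between the knockouts, the 2 members called became 4 with quantile normalization, 0 with 6 libraries, 0 without the intensity trend and 5 with the length trend removed, and ranged from 0 to 10. The 361 genes called became 64 with 6 libraries and 559 with the length trend removed and ranged from 82 to 740. The cause was not tested.

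Scaling moved the balance of calls. In the Ndufa4 knockout 32.9% of genes called were higher (315 of 956), against 52.7% with median-of-ratios scaling and 52.1% with quantile normalization, and 38.5% of the members called (5 of 13) against 50% (7 of 14) and 42.9%. Between the knockouts 67.9% of genes called were higher, against 49.7% and 50.8%. The median over all genes moved from -0.08 to -0.01 with median-of-ratios scaling.

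The replicate numbers showed no clear pairing: deviations of same-numbered libraries correlated from -0.14 to 0.18 and those of differently numbered ones from -0.16 to 0.13. The value of 0.18 was that of replicate 1 of both knockouts, and these correlations cannot settle whether libraries were paired. With the replicate block, 11 members (3 higher, 8 lower) and 661 genes were called in the Ndufa4 knockout, 0 members and 24 genes in the Ndufa4l3-miR147 knockout, and 0 members and 162 genes between the knockouts. Precision is limited by 3 libraries per genotype and an unknown depth.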
